A study of Rattus norvegicus with 40 samples.

Results

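The unfolded protein and amino acid response was followed in the cerebral cortex of rats through 36 genes. They were listed by symbol, but chosen with earlier results of these data known. Of these, 35 had a probe set annotated to that gene alone (Ern1 had none), and 34 had a probe set above the filter on dim values, out of 10304 such genes on the array. The 34 comprised 15 chaperones and quality control proteins of the endoplasmic reticulum (ER), 6 sensors and transcription factors, and 13 targets of the transcription factor Atf4. Trib3, a pseudokinase and Atf4 target, was listed at the floor of the scale on 28 of 40 arrays and was not tested. Where a gene had several probe sets above the filter, the brightest stood for it.

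Total RNA of cerebral cortex was measured on 40 Affymetrix arrays, 20 from rats given hypoxic preconditioning (a sublethal period in low oxygen) and 20 from normoxic sham controls. The samples of each group are numbered 1 to 20, and they fall into 4 runs of 5 numbers, the first being 1 to 5 and the last 16 to 20, so each run holds 5 sham and 5 preconditioned arrays. What the runs stand for is not given in the sources used here, so a difference between runs cannot be told apart from a difference in time, animals or handling. The same holds for the oxygen level, the length of exposure, the age, the strain and whether each sample is a separate animal, so every p-value reflects only the spread among these samples, and part of it may be technical. Cortex is a mixture of cells, and in such bulk RNA fewer cells of a type and less RNA per cell cannot be told apart. Neuronal markers were well detected, with Snap25, a synaptic protein, at a mean of 11.8 (log2) and the glutamate transporter Slc17a7 at 8.93.

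Proteins bound for the membrane or for secretion fold in the ER, and unfolded protein there is sensed by the membrane proteins Ern1, Eif2ak3 (PERK) and Atf6. Ern1 splices the RNA of Xbp1 and Atf6 is cleaved into a transcription factor, and both products raise the genes of ER chaperones such as Hspa5 (BiP). PERK phosphorylates the initiation factor eIF2α, as do kinases that sense amino acid shortage, heme lack or viral RNA, which lowers protein synthesis while Atf4 is translated more and raises genes of amino acid synthesis and transport. These arrays measure RNA levels, not Xbp1 splicing, Atf6 cleavage or phosphorylation.

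The ER stress response element (ERSE), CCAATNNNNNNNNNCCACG, is the site through which Atf6 and Xbp1 are known to act together with the CCAAT-binding factor NF-Y. It was searched on both strands in RefSeq promoters (assembly GRCr8, 250 bases before to 50 after the start of each gene), in which 31 of the 36 genes had an entry. The motif lay in the promoters of 6 of 12 ER chaperone genes (Hspa5, Hsp90b1, Creld2, Dnajc3, Calr and Canx), of Xbp1 among the 5 regulators, and of 0 of 14 Atf4 targets, against 22 of 33469 promoters (0.0657%) overall. The 250 bases before the start are shown for 5 genes whose levels are compared below, 5′ to 3′ on the gene's strand, with the ERSE in capitals. Hspa5 (chr3:38452766-38453015, + strand) and Xbp1 (chr14:84604373-84604622, +) hold it in the forward direction, Creld2 (chr7:121789134-121789383, +) and Calr (chr19:40213117-40213366, +) in reverse, and Sdf2l1 (chr11:97376628-97376877, +) holds no match.
Hspa5: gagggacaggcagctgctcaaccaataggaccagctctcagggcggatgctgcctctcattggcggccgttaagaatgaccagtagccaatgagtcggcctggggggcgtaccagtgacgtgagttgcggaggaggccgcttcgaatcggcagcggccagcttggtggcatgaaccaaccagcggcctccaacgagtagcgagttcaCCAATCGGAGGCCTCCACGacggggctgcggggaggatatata
Xbp1: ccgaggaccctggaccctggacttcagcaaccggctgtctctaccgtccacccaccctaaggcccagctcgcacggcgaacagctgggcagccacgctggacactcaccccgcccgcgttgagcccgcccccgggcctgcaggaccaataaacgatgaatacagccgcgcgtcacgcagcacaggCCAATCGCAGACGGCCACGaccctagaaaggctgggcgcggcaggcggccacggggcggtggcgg
Creld2: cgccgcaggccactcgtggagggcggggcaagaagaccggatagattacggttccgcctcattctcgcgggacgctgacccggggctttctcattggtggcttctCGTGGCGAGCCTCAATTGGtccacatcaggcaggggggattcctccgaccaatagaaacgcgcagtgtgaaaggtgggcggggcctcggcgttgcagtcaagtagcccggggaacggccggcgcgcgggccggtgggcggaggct
Calr: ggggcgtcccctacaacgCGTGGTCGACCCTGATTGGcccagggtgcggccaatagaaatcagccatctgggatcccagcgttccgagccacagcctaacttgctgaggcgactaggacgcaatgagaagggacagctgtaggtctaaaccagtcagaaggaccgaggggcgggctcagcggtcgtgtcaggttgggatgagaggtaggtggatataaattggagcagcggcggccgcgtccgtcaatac
Sdf2l1: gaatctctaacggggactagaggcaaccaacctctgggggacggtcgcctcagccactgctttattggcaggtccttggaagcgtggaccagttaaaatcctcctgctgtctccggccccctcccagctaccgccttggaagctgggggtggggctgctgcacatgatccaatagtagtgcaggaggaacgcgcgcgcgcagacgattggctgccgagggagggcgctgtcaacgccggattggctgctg

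The ERSE began 43 bases before the start in Hspa5 and 65 in Xbp1, and its far edge lay 145 bases before it in Creld2 and 232 in Calr. The related ERSE-II, ATTGGNCCACG, occurred in Herpud1, Dnajb11 and Hyou1, against 0.0508% of all promoters, and the UPRE, TGACGTGG, in Hyou1, where it overlaps an ERSE-II, against 0.595%. The Atf4 composite element, TGATGNAA, occurred in Chac1, Nupr1, Trib3 and Herpud1, against 3.98%. A match is a string of letters and not evidence of binding, and no match says only that these letters are not in the window.

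The arrays were scaled alike, and their median log2 values spanned 0.29. Preconditioned arrays 5 and 6 stood apart, with medians of 5.59 and 5.53 against 5.71 or more on the others. RNA integrity, read from the 3′ over 5′ signal of control transcripts, gave ratios of 1.38 to 1.90 for actin and 0.892 to 1.06 for GAPDH. Calls that end without these arrays are named beside the results.

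After preconditioning, few genes of the response differed from sham, and no broad rise of ER chaperones or of Atf4 targets was detected. In numbers 6 to 10, the ER proteins Sdf2l1 and Creld2 fell to 0.684 and 0.668 of the sham level, and Slc3a2, the heavy chain of amino acid exchangers, rose 1.19-fold. These were the 3 of 34 genes that limma called in that run (adjusted p under 0.05), where it called 2.22% of all probe sets. It called 0 of the 34 in numbers 1 to 5 (2.39% of all probe sets), 0 in 11 to 15 (0.0698%) and 0 in 16 to 20 (0%). There, 5, 4 and 2 genes had an unadjusted limma p under 0.05, beside 3100, 1835 and 952 of all 18625 probe sets. These counts lie near the shares over all probe sets. In numbers 6 to 10, 8 genes had such a p, beside 3128 probe sets.

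Sdf2l1 is an ER protein that works with Hspa5 and its DnaJ partners. In numbers 6 to 10 its log2 intensity on the sham arrays was 7.99, 7.92, 7.75, 7.97 and 7.83, and on the preconditioned arrays 7.72, 7.52, 7.17, 7.32 and 7.00. All 5 preconditioned arrays lay below all 5 sham arrays. The difference was -0.55 ± 0.11 (log2, SE, n = 5 per group, 95% confidence interval -0.78 to -0.32, limma adjusted p = 0.0035). In the other runs it was -0.25, -0.09 and 0.03, with adjusted p-values of 0.24, 0.85 and 0.99 (limma), and a test of whether the effect differed between runs gave an adjusted p of 0.18. The average of the 4 run effects for Sdf2l1 was -0.21 ± 0.06 (limma adjusted p = 0.023).

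Creld2, a disulfide isomerase-like ER protein induced by ER stress, had sham values of 8.22, 8.84, 8.40, 8.53 and 8.18 in numbers 6 to 10 and preconditioned values of 8.23, 8.02, 7.88, 7.68 and 7.45. The groups overlapped through preconditioned array 6, the other 4 lying below all sham arrays. Creld2 fell by 0.58 ± 0.16 (SE, limma adjusted p = 0.039), while in numbers 1 to 5, 11 to 15 and 16 to 20 its differences were 0.04, 0.09 and -0.09. The call of Creld2 ended without sham 7, 8 or 9 or without preconditioned 9 or 10, with limma adjusted p-values between 0.073 and 0.15, and with each array centred on its median (0.09). Without preconditioned array 6 its difference was -0.68, and that of Sdf2l1 was -0.64.

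Slc3a2, also known as CD98 heavy chain and an Atf4 target, had sham values of 9.47, 9.41, 9.44, 9.28 and 9.33 in numbers 6 to 10 and preconditioned values of 10.01, 9.51, 9.43, 9.60 and 9.66. Preconditioned array 6, an array that stood apart, was the highest, and all but array 8 exceeded every sham array. The rise was 0.25 ± 0.07 (SE, limma adjusted p = 0.046), and without preconditioned array 6 the difference was 0.16 (adjusted p = 0.22). The call of Slc3a2 held in 21 of the 40 fits that each left out 1 array. In numbers 1 to 5 the Slc3a2 difference was 0.20 ± 0.07 (adjusted p = 0.13, limma), and in 11 to 15 and 16 to 20 it was -0.02 and 0.02.

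**Figure D1:**
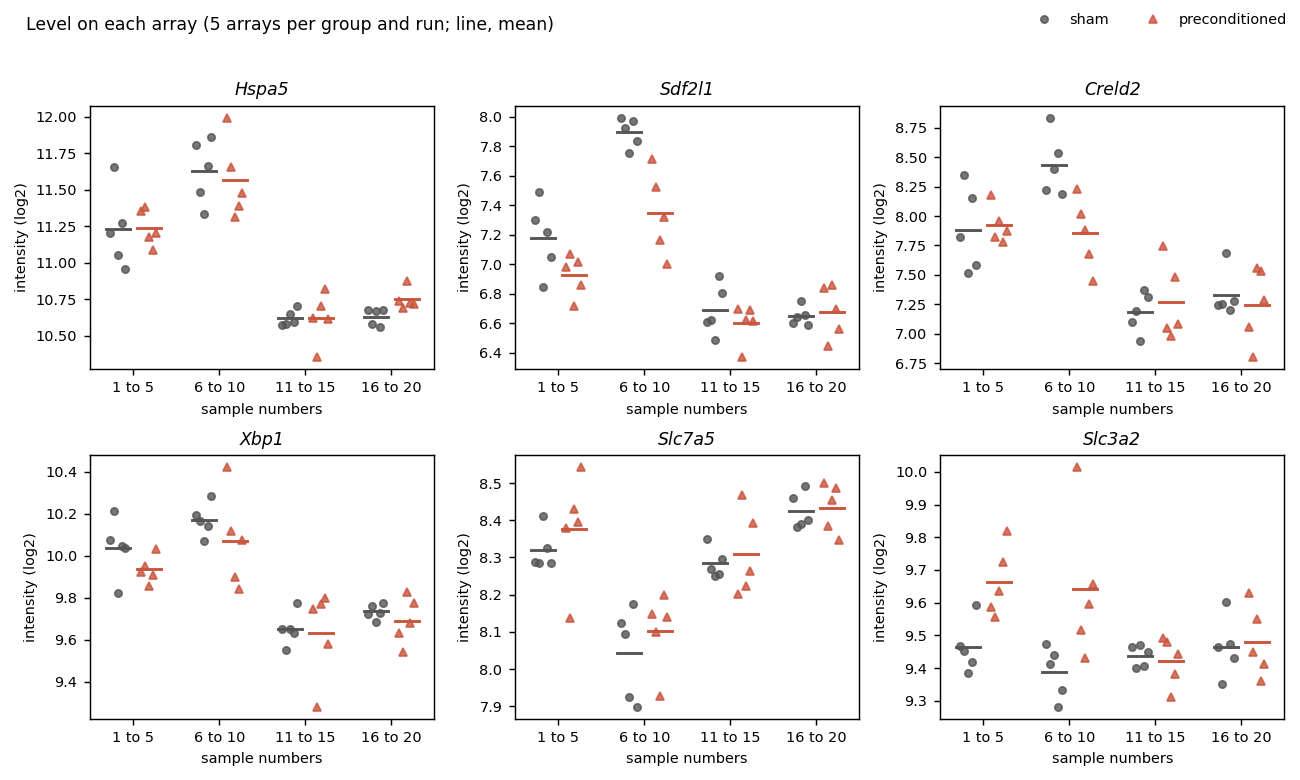
Log2 intensity (y axis) of 6 genes on each of the 40 arrays by sample number (x axis), with sham arrays as circles, preconditioned arrays as triangles and a line at each group's mean. Sdf2l1 is lower on all 5 preconditioned than on all 5 sham arrays in numbers 6 to 10, while Hspa5 stands lower in numbers 11 to 20 than in 1 to 10 in both groups.

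Hspa5, the main ER chaperone and the usual marker of ER stress, overlapped between the groups in numbers 6 to 10. Its sham values there were 11.80, 11.48, 11.33, 11.66 and 11.86, and its preconditioned values 11.99, 11.65, 11.31, 11.39 and 11.48. The difference was -0.06 ± 0.11 (SE, 95% confidence interval -0.28 to 0.15, limma adjusted p = 0.81). In numbers 1 to 5 and 11 to 15 the difference was 0.01 and 0.00, and in 16 to 20 it was 0.12, with each preconditioned array above every sham array (limma adjusted p = 0.96). These intervals leave room for small changes in Hspa5, so they do not show that its level was the same.

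Of the other ER genes, Dnajb11, a DnaJ partner of Hspa5, had a difference of -0.25 ± 0.08 in numbers 6 to 10 (limma adjusted p = 0.061) and an average over the runs of -0.13 ± 0.04 (adjusted p = 0.047). For the average, limma called 2 of the 34 genes, Sdf2l1 and Dnajb11, against 3.99% of all probe sets. An unadjusted p under 0.05 was found for 9 genes, beside 3607 of 18625 probe sets. With each array centred on its median, both calls were lost (limma adjusted p = 0.22 for Dnajb11), and Slc7a11, the cystine transporter, was called instead. The Dnajb11 call held in 11 of the 40 fits that each left out 1 array, and it ended without preconditioned arrays 5 and 6 together. The median difference of the 15 ER genes was -0.04, -0.09, 0.00 and 0.04 in the 4 runs, beside -0.03, -0.02, 0.00 and 0.00 over all probe sets.

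Among the sensors and transcription factors, 0 of 6 were called in any run. An unadjusted p under 0.05 was found for 1, 3, 2 and 0, beside 3100, 3128, 1835 and 952 of 18625 probe sets. Eif2ak3, the kinase PERK, had sham values of 7.14, 7.16, 7.38, 7.35 and 7.06 in numbers 6 to 10 and preconditioned values of 6.66, 6.91, 7.09, 6.92 and 6.57. The difference was -0.39 ± 0.12 (SE, limma adjusted p = 0.069), with 4 of 5 preconditioned arrays below all sham arrays. Ddit3 (CHOP), a transcription factor of lasting ER stress, was 6.20, 6.27, 6.01, 6.06 and 5.87 on the sham arrays of numbers 1 to 5 and 6.43, 6.62, 6.50, 6.37 and 6.42 on the preconditioned arrays. The 2 groups did not overlap, but the difference of 0.38 ± 0.15 did not pass the test (limma adjusted p = 0.17), and its sign was negative in the other runs (-0.15, -0.17 and -0.08). Atf6 had differences of -0.14, 0.20, 0.19 and 0.03, with all adjusted p-values (limma) at 0.23 or above. Xbp1 differed by -0.10, -0.10, -0.02 and -0.04, none of them called. Atf4 had sham means of 10.16, 10.15, 10.24 and 10.31 and preconditioned means of 10.24, 10.29, 10.06 and 10.31, so the sign of its difference changed between runs. In numbers 11 to 15 all 5 preconditioned arrays lay below all 5 sham arrays for Atf4, and no run was called.

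Among the 13 Atf4 targets, Slc3a2 in numbers 6 to 10 was the only call within a run. Asns, asparagine synthetase and a usual marker of the amino acid response, differed by -0.06, -0.03, -0.04 and 0.01 in the 4 runs. Psph, the last enzyme of serine synthesis, was 6.69, 7.33, 7.06, 7.28 and 7.10 on the sham arrays of numbers 11 to 15 and 7.00, 6.08, 6.62, 6.57 and 6.83 on the preconditioned arrays. The groups overlapped through sham array 11 and the difference of -0.47 ± 0.12 did not pass (limma adjusted p = 0.16). Slc7a11 differed by 0.19, 0.09, -0.09 and 0.26, and its average of 0.11 ± 0.04 did not pass (limma adjusted p = 0.08). The median difference of the 13 targets was 0.06, 0.06, -0.04 and 0.01.

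**Figure D2:**
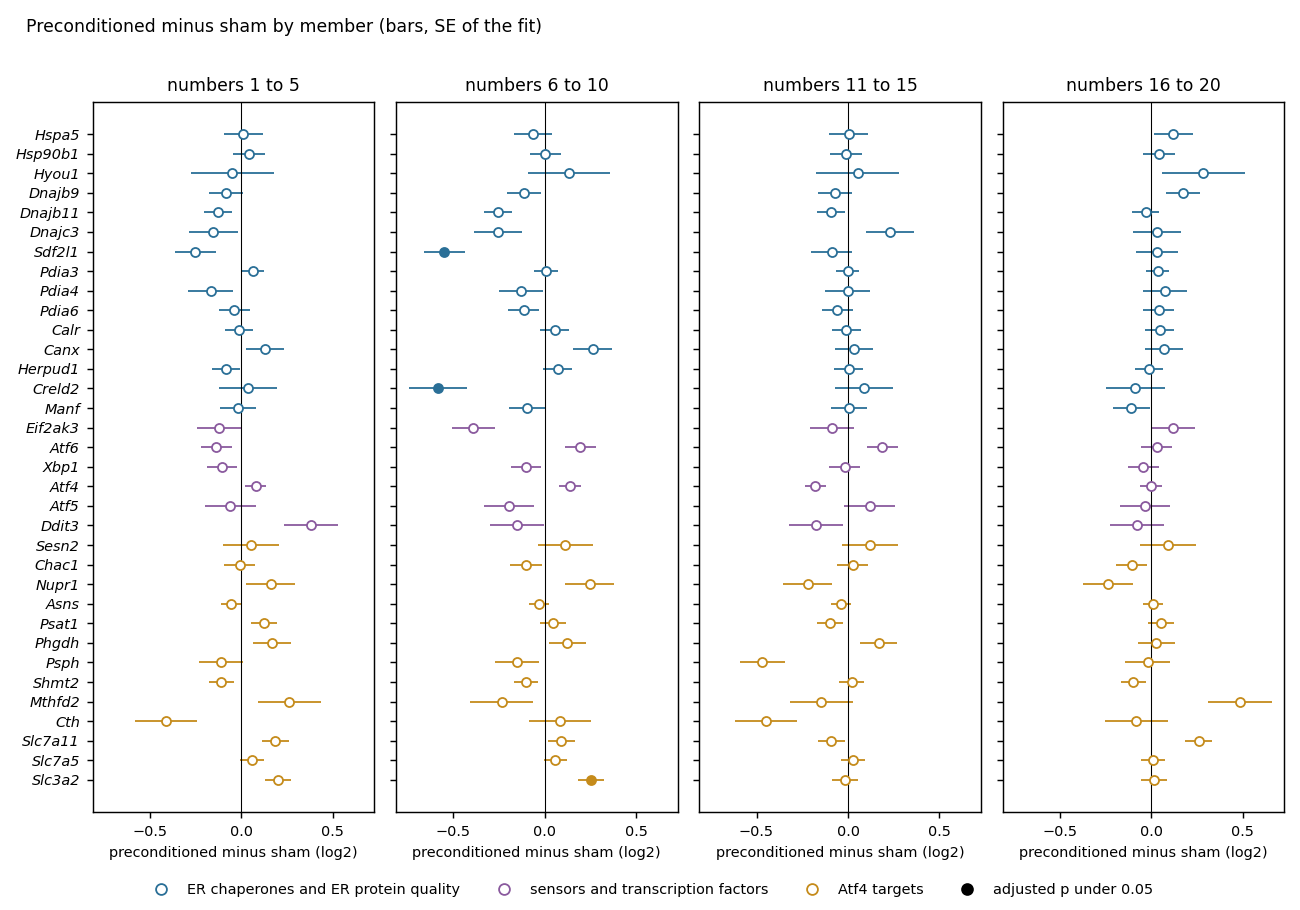
Preconditioned minus sham difference (log2, x axis) with its standard error for each of the 34 genes (y axis) in the 4 runs, coloured by role, with filled points where the limma adjusted p is under 0.05. The 3 filled points, Sdf2l1, Creld2 and Slc3a2, all lie in numbers 6 to 10.

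The test of whether the preconditioning effect differed between runs called 0 of the 34 genes, against 0.762% of all probe sets. An unadjusted p under 0.05 was found for 10 genes, beside 2400 of 18625 probe sets, and the smallest adjusted p was at Atf4 (limma, 0.13). The differences in numbers 6 to 10 are therefore not shown to be particular to that run. In numbers 6 to 10, single markers of other cells also differed: Gfap of astrocytes by 1.02, Vwf of endothelium by 0.54, Pdgfra of oligodendrocyte precursors by 0.45 and Tek of endothelium by -0.51. Thus 1 of 7 astrocyte, 2 of 7 endothelial and mural (below, endothelial) and 1 of 5 oligodendrocyte markers were called, beside 2.22% of all probe sets. Of 8 neuronal (6 higher), 6 microglial (2 higher), 7 meningeal (3 higher) and 3 red cell markers (2 higher), 0 were called. The median difference was -0.11 for astrocyte markers (3 higher, 4 lower), 0.02 for endothelial (4 and 3) and 0.00 for oligodendrocyte markers (3 and 2). All 3 choroid plexus markers were higher (0.29 to 1.53), with 0 called. An unadjusted p under 0.05 (limma) was found for 2 of them, beside 3128 of 18625 probe sets. Without preconditioned arrays 5 and 6 the call of Vwf ended (0.50, limma adjusted p = 0.051), and Slc1a2, an astrocyte glutamate transporter, was called lower (-0.88, against -0.60 with them). Intensities were also summed over each marker list per array and log2 was taken, so the brightest markers weigh most. For astrocyte markers this gave 12.82 to 13.24 on the sham and 12.98 to 13.57 on the preconditioned arrays. For endothelial markers it gave 10.21 to 10.31 and 10.12 to 10.45. For oligodendrocyte markers, with Mog under the filter included, it gave 10.68 to 11.12 and 10.84 to 11.44. The mean log2 level over the astrocyte markers was 9.29 on the sham and 9.33 on the preconditioned arrays. Over the endothelial markers it was 6.67 and 6.80, and over the oligodendrocyte markers 7.77 and 7.83. The part of these in the results for Sdf2l1, Creld2 and Slc3a2 was not tested.

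Among the sham arrays alone, 11 of 15 ER genes had their highest mean in numbers 6 to 10 (13 of 15 on the preconditioned arrays), and many stood lower in numbers 11 to 20. Of the 13 Atf4 targets, 2 had their highest sham mean in numbers 6 to 10. The share of all probe sets with their highest mean in that run was not computed, so these counts have no background beside them. The test of sham level across the runs called 15 of 34 genes, against 13.7% of all probe sets: 11 of 15 ER genes, 3 of 6 regulators (Xbp1, Ddit3 and Eif2ak3) and 1 of 13 Atf4 targets (Slc7a5). In the preconditioned arrays the same test, added after the levels had been seen, called 16 of 34 against 22.8%: 8 ER genes, 3 regulators (Xbp1, Atf4 and Ddit3) and 5 Atf4 targets (Nupr1, Shmt2, Slc7a11, Slc7a5 and Slc3a2). Without preconditioned arrays 5 and 6 the count was 15, Shmt2 being lost. The ER genes not called on the sham arrays were Calr and Canx, the lectin chaperones, Pdia3, their disulfide isomerase partner, and Hyou1, an Hsp70-like chaperone.

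Hspa5 on the sham arrays was 11.20, 11.65, 11.05, 11.27 and 10.96 in numbers 1 to 5. In numbers 11 to 15 it was 10.57, 10.58, 10.65, 10.60 and 10.70, and in numbers 16 to 20 it was 10.68, 10.58, 10.67, 10.56 and 10.67. All 10 arrays of numbers 11 to 20 lay below all 10 of numbers 1 to 10. The group means were 11.23 ± 0.27, 11.63 ± 0.22, 10.62 ± 0.06 and 10.63 ± 0.06 (SD, n = 5). The limma test across the runs gave an adjusted p of 8.7e-09. On the preconditioned arrays the means were 11.24, 11.57, 10.62 and 10.75, in the same order.

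Sdf2l1 had sham means of 7.18 ± 0.24, 7.90 ± 0.10, 6.69 ± 0.17 and 6.65 ± 0.06 (SD, n = 5 per run, limma adjusted p = 6.5e-10), the smallest adjusted p of all 18625 probe sets. Its preconditioned means were 6.93, 7.35, 6.60 and 6.68. The last 2 runs differed by less than their spread, and numbers 6 to 10 stood 0.72 above 1 to 5 on the sham arrays (limma adjusted p = 0.00049). Creld2 followed with sham means of 7.88, 8.44, 7.18 and 7.33, and Pdia4, an ER disulfide isomerase, with 8.42, 8.58, 7.89 and 7.77 (limma adjusted p across the runs 6.7e-06 and 3.1e-05).

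Xbp1 was the regulator that moved most clearly with them, with sham means of 10.04, 10.17, 9.65 and 9.73 (limma adjusted p = 0.00011). Its sham values were 10.20, 10.17, 10.07, 10.14 and 10.29 in numbers 6 to 10 and 9.65, 9.55, 9.65, 9.63 and 9.78 in 11 to 15, with no overlap. Ddit3 had sham means of 6.08, 6.51, 5.94 and 5.92 (adjusted p = 0.012, limma) and Eif2ak3 6.96, 7.22, 6.86 and 6.75 (adjusted p = 0.026). Eif2ak3 on the preconditioned arrays was 6.84, 6.83, 6.77 and 6.86 and was not called (limma adjusted p = 0.92).

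Slc7a5, the light chain that pairs with Slc3a2 to import large neutral amino acids, ran the other way. Its sham values were 8.12, 8.09, 7.93, 8.17 and 7.90 in numbers 6 to 10 and 8.29, 8.29, 8.41, 8.33 and 8.29 in 1 to 5. All 5 arrays of numbers 6 to 10 lay below those of 1 to 5. The difference, 6 to 10 minus 1 to 5, was -0.28 ± 0.07 (SE, limma adjusted p = 0.023), and the Slc7a5 sham means of the later runs were 8.28 and 8.43. Its preconditioned means, 8.38, 8.10, 8.31 and 8.43, were also lowest in numbers 6 to 10. The mean level of the 13 Atf4 targets per sham run was 7.45, 7.46, 7.49 and 7.49, while that of the 15 ER genes was 9.00, 9.22, 8.73 and 8.68.

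**Figure D3:**
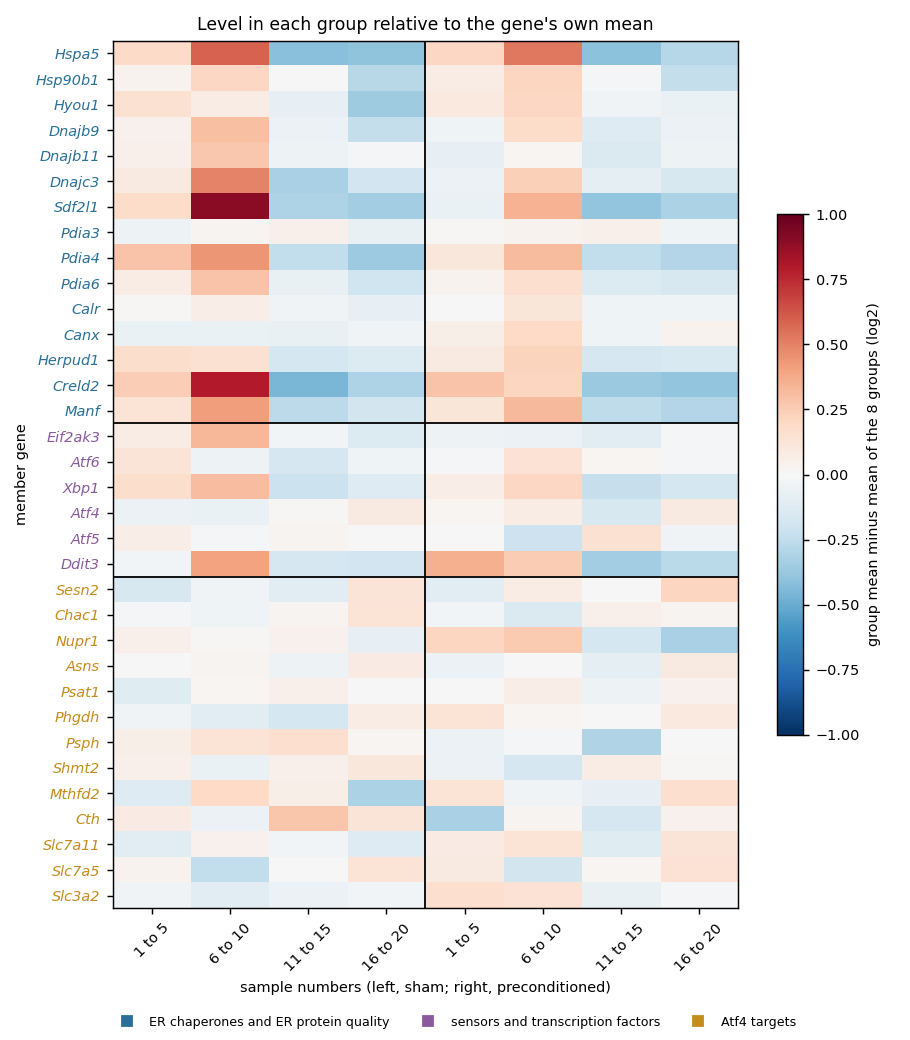
Heat map of the group mean minus the mean of the 8 groups (log2, colour scale from -1 to 1) for the 34 genes (y axis, by role) in the 4 sham and 4 preconditioned groups (x axis). The ER genes Hspa5, Pdia4 and Creld2 and the regulator Xbp1 are high in the first 2 runs and low in the last 2 in both groups, and Slc7a5 is lowest in numbers 6 to 10.

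The step from numbers 6 to 10 to numbers 11 to 15 was compared directly, a contrast chosen after these levels had been seen and so only descriptive. On the sham arrays, limma called 24 of 18625 probe sets lower (0.129%), and 10 of these stood for genes of the response, 9 ER genes and Xbp1. Their differences were -1.25 for Creld2, -1.21 for Sdf2l1, -1.01 for Hspa5, -0.82 for Dnajc3, -0.69 for Pdia4, -0.68 for Manf, -0.52 for Xbp1, -0.36 for Pdia6 and -0.32 each for Dnajb11 and Herpud1. Hspa5 thus stood at 0.497 of its level in numbers 6 to 10. The 14 other probe sets included 11 with a gene name: Ero1b (-0.69), Cdk2ap2 (-0.59), Naa25 (-0.47), Homer1 (-0.47), Slc33a1 (-0.42), Nfyb (-0.41), Derl2 (-0.41), Celf2 (-0.39), Ostc (-0.37), Pdpk1 (-0.31) and Hecw1 (-0.30). On the preconditioned arrays Ero1b, Derl2, Homer1 and Celf2 were also lower, and the other 7 were not called. The calls of Herpud1, Dnajb11 and Pdia6 held in 12, 26 and 30 of the 40 fits that each left out 1 array, and those of the other 7 in all 40. Of the 13 Atf4 targets 0 were called, their median difference was 0.03, and 1 had an unadjusted p under 0.05, beside 1522 of 18625 probe sets.

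On the preconditioned arrays the same contrast called 3.78% of all probe sets lower and 14 of the 34 genes, 8 of them among the 10 above. Hspa5 differed by -0.94, Sdf2l1 by -0.75, Manf and Creld2 by -0.58, Pdia4 by -0.56 and Xbp1 by -0.44. Dnajc3 (-0.34) and Dnajb11 (-0.16) were not called there. Ddit3 (-0.60), Atf4 (-0.24) and the targets Nupr1 (-0.44), Slc7a11 (-0.25) and Slc3a2 (-0.22) were lower. Shmt2 (0.24) and Slc7a5 (0.21) were higher, as were 956 of all 18625 probe sets. Without preconditioned array 6, or without array 12, the count was 9 instead of 14, and without arrays 5 and 6 together it was 9. The calls that ended without arrays 5 and 6 were Creld2, Pdia6, Slc7a11, Dnajb9 and Slc3a2. Their limma adjusted p-values were then 0.06, 0.061, 0.065, 0.11 and 0.17.

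Against numbers 1 to 5, the sham arrays of 16 to 20 were lower for 10 of 34 genes, 9 ER genes and Xbp1, beside 7.88% of all probe sets. They were higher for 0 of the 34, beside 1293 of 18625 probe sets. The preconditioning contrast in numbers 6 to 10 and these run contrasts share the sham arrays 6 to 10, so they are not independent. Of 15 measured genes whose promoter holds the ERSE, 5 were lower in sham numbers 11 to 15 than in 6 to 10, beside 0.129% of all probe sets. Hspa5, Creld2, Dnajc3 and Xbp1 are 4 of the 7 that belong to the response, and the contrast was chosen after their levels had been seen. Of the 8 other genes with the ERSE, 1 was lower, Ero1b. Calr (-0.10), Canx (-0.01) and Hsp90b1 (-0.21) hold the ERSE and were not called, while Sdf2l1 and Pdia4 hold no match and were lower.

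For the sham arrays of numbers 6 to 10 and 11 to 15, the actin 3′ to 5′ ratio was 1.59 to 1.71 and 1.55 to 1.65, and that of GAPDH 0.892 to 0.962 and 0.933 to 1.04. In the same contrast, limma called 0 markers from the lists of 8 cell types (8 neuronal, 7 astrocyte, 5 oligodendrocyte, 7 endothelial and mural, 6 microglial, 3 choroid plexus, 7 meningeal and 3 red cell markers). It called only 54 of all 18625 probe sets there, higher or lower, so 0 calls in such short lists say little about the cell mixture. All 3 choroid plexus markers and 1 each of the oligodendrocyte, endothelial and meningeal lists had an unadjusted p under 0.05, beside 1522 of all probe sets. Intensities were again summed over each list per array, markers under the filter included, so the brightest markers weigh most. The log2 of the sum was 12.97 to 13.13 and 13.01 to 13.18 for neurons, and 12.82 to 13.24 and 12.91 to 13.14 for astrocytes. For oligodendrocytes it was 10.68 to 11.12 and 10.73 to 10.90. It was 10.21 to 10.31 and 10.23 to 10.29 for endothelial cells, 9.02 to 9.38 and 8.93 to 9.20 for microglia, and 12.39 to 12.60 and 12.28 to 12.61 for meninges. Choroid plexus markers spanned 7.36 to 12.39 and 11.62 to 12.45, and red cell markers 11.79 to 12.28 and 11.94 to 12.54. Across all 4 sham runs, limma called 3 of 8 neuronal, 4 of 7 astrocyte, 3 of 5 oligodendrocyte, 1 of 6 microglial and 2 of 7 meningeal markers. It called 0 endothelial, choroid plexus or red cell markers, and 13.7% of all probe sets. The part of the called markers in the levels of the ER genes was not tested.

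Within groups, the ER genes also varied together from array to array. With each value taken as its deviation from the mean of its group and run, Pearson's r with Hspa5 over 40 arrays was 0.5 or more for 8 of the 14 other ER genes, 1 of 6 regulators and 0 of 13 Atf4 targets, against 0.929% of all other probe sets. The median r was 0.56 for the ER genes, with all 14 positive (0.24 to 0.70), and 0.00 for the Atf4 targets (-0.39 for Chac1 to 0.41 for Psat1). Xbp1 had the highest r of all probe sets, 0.77 (Spearman's rho 0.69, n = 40), with a permutation p within groups of 1e-05, the smallest the permutations can give. Manf, an ER protein secreted under stress, had an r of 0.70 (rho 0.67, permutation p = 6e-05), Pdia3 0.68 and Sdf2l1 0.67. In all, 33 such correlations were computed, and these p-values are not adjusted.

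Without the 2 arrays whose Hspa5 lay farthest from the median, preconditioned 6 and sham 2, the r of Xbp1 was 0.69 and 5 ER genes reached 0.5, and without preconditioned 5 and 6 together it was 6 ER genes. On the sham arrays alone 7 ER genes and 1 Atf4 target reached 0.5, and on the preconditioned arrays alone 9 and 1. All points come from the same arrays and share each array's scaling. With each array centred on its median, 13 ER genes and 2 Atf4 targets reached 0.5. The median r of the Atf4 targets was then 0.27, with 11 of 13 positive. The share of all probe sets at 0.5 or more was not computed for any of these alternatives. Their counts therefore have no background beside them, and the higher count of ER genes after median centring cannot be read as stronger joint variation.

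**Figure D4:**
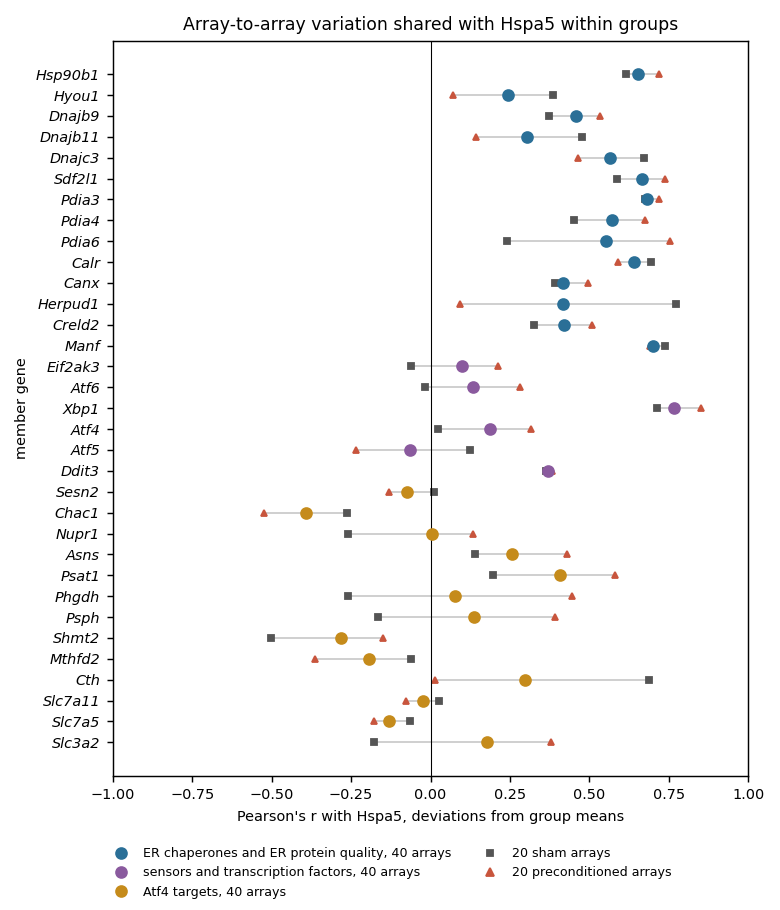
Pearson's r with Hspa5 (x axis) for the other 33 genes (y axis, by role), from deviations from the group means, over 40 arrays (circles), 20 sham arrays (squares) and 20 preconditioned arrays (triangles). Xbp1 and ER genes such as Manf and Pdia3 lie highest, and the Atf4 targets lie on both sides of 0.

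Beyond these 34 genes, other lists of the pathway gave few calls for preconditioning. Of 34 other genes of ER folding and translocation, Ero1a, an ER oxidase, rose in numbers 1 to 5 (0.44 ± 0.10, limma adjusted p = 0.013) and Sec62, of the translocation channel, fell by 0.24 in numbers 6 to 10 (adjusted p = 0.038), and both were called for the average. Without preconditioned arrays 5 and 6 the calls of Sec62 ended (limma adjusted p = 0.088 and 0.084). Of 17 genes of ER-associated degradation, limma called 0 in any run. An unadjusted p under 0.05 was found for 2, 3, 1 and 0, beside 3100, 3128, 1835 and 952 of 18625 probe sets. Of 17 other genes of unfolded protein and eIF2α signalling, Eif2s1, the α subunit of eIF2 itself, fell by 0.25 in numbers 1 to 5 (limma adjusted p = 0.042, and 0.15 without preconditioned arrays 5 and 6). For the average, Ppp1r15a (GADD34), which directs the dephosphorylation of eIF2α, rose by 0.23 (limma adjusted p = 0.048, and 0.057 without those arrays) and the transcription factor Cebpb by 0.36 (0.045).

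None of 19 aminoacyl-tRNA synthetases, many of them Atf4 targets, was called by limma in a run (0 of 19, with 2, 6, 4 and 0 at an unadjusted p under 0.05) or across the sham runs (0, with 5). Over all 18625 probe sets the unadjusted counts were 3100, 3128, 1835 and 952 in the runs and 5447 across the sham runs. The list of 20 other genes for amino acid transport and metabolism also held Vldlr, which is not an amino acid gene. Vldlr, a lipoprotein receptor gene known to respond to hypoxia and ER stress, rose by 0.55 in numbers 1 to 5 (limma adjusted p = 1.8e-07) and by 0.38 in 6 to 10 (0.00033). Its effect differed between the runs (interaction, limma adjusted p = 6.4e-05). Slc7a1, the cationic amino acid transporter, fell by 0.27 in numbers 6 to 10 (limma adjusted p = 0.011). Without preconditioned arrays 5 and 6, Gpt2, a transaminase, was also called in numbers 1 to 5 (0.36, limma adjusted p = 0.036), and for other folding genes Fkbp2 was called for the average (-0.11) and Fkbp2 and Erp44 for the interaction. Across the sham runs, where 13.7% of all probe sets were called, 9 of 34 other folding genes, 5 of 17 degradation genes (Derl2, Os9, Sel1l, Edem1 and Ubxn4), 2 of 17 signalling genes and 3 of 20 amino acid genes were called, the last pair of shares lying near that of all probe sets.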

How the data were processed

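The deposited values are linear probe set intensities of the authors, 1 per probe set and array. The software is not given in the sources used here. Per array, the trimmed mean intensity was 150.04 to 150.06, so the arrays had been scaled to a common mean. Depth of an array has no count, and the number of arrays limits the precision.

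Intensities under 16 were set to 16 and log2 was taken. After 57 control probe sets were left out, a filter at the 40th percentile of mean log2 level (31.9 as intensity) left 18625 of 31042. Gene names came from the platform annotation. No detection calls were used. Groups and numbers came from the labels.

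One limma 3.58.1 fit in R 4.3.3 (8 group means, mean trend) gave all contrasts and moderated F-tests, two-sided, with Benjamini-Hochberg adjustment over all 18625 probe sets and a threshold of 0.05. The fit was checked on simulated data. Promoters came from RefSeq (GRCr8). Genes named in full were those called within a run, plus up to 4 per role with the smallest adjusted p for the average, the interaction or the sham level across runs. Correlations used deviations from group means, with 1e+05 permutations within groups. The genes and lists were chosen with earlier results of these data known. Alternatives were other normalizations, filters, floors and designs, and leaving out each array.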

Additional observations from a re-analysis of the deposited data

Results flagged for a closer look

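Among the 12 genes named in full, in 8 groups of 5 arrays each, 96 groups were checked for an array far from its nearest neighbour, and 5 had such an array. Chance flags about 1 in 20 groups, so this number is about what chance gives. In the preconditioned arrays of numbers 11 to 15, Sdf2l1 was 6.37 on array 12, with the next value at 6.62. In the sham arrays of numbers 16 to 20, Creld2 was 7.68 on array 18, with the next at 7.28, and Pdia4 was 7.63 on array 17, with the next at 7.79. In the preconditioned arrays of numbers 16 to 20, Hspa5 was 10.88 on array 18, with the next at 10.73. In the preconditioned arrays of numbers 1 to 5, Psph was 6.82 on array 1, with the next at 6.87.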

How the results depend on the processing

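None of the results recomputed reversed its direction under the alternatives run. Limits: 5 arrays per group and run, unknown meaning of the runs, and a common scaling of arrays that median centring changes. In numbers 6 to 10 the count of called genes was 3. It was 1 with no filter, 1 with no mean trend, 0 with the 10 arrays of the run fitted alone (limma adjusted p = 0.051 for Sdf2l1, 0.092 for Creld2 and 0.25 for Slc3a2), 2 with median centring (Creld2 lost), 2 without preconditioned arrays 5 and 6 together (Slc3a2 lost), and 1 to 4 with 1 array left out. It was 1, namely Sdf2l1, without sham 7, 8 or 9 or without preconditioned 9 or 10. In numbers 1 to 5 the count of 0 became 1 (Slc3a2) without preconditioned 6. For the average of the run effects, the count of 2 became 1 with quantile normalization, with median centring, with no filter, with no mean trend and without preconditioned arrays 5 and 6 together, 0 with no term for the number run, and 1 to 3 with 1 array left out. The count of 14 genes lower in preconditioned numbers 11 to 15 than in 6 to 10 became 9 without arrays 5 and 6, and 9 to 14 with 1 array left out. Unless fewer samples or genes explain it by construction, the cause was not tested.

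Samples that share a number tended to deviate together (r of 0.03 to 0.39 over 20 pairs, 15 of them over 0.1, and 17 correlating best with their own number). The labels do not say that a number marks a shared animal, litter or day. Pairing required every pair to pass 0.1, so the fits reported have no block. Each sham array was set against the 5 preconditioned arrays of its run, so 17 of 20 is far more than an even choice would give. The correlations are thus a sign of pairing in the data, of unknown source. The p-values reported above, those of the permutations included, take no account of this pairing. With it, the sham and preconditioned levels of a run are not independent of each other. With the replicate block, the count was 5 in numbers 6 to 10 (adding Dnajb11 and Eif2ak3) and 4 for the average (adding Slc7a11 and Slc3a2), and it stayed 0 in the other 3 runs and for the interaction.

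The count of 15 genes for the sham level across runs was 14 to 16 under the other settings and 13 to 16 with 1 array left out, and the 10 genes lower in sham numbers 11 to 15 numbered 7 to 11. Median centring moved the split of all called probe sets, higher against lower, from 230 and 215 to 347 and 85 in numbers 1 to 5, from 204 and 209 to 409 and 81 in 6 to 10, from 385 and 359 to 685 and 117 for the average, and from 956 and 704 to 383 and 1170 for preconditioned 11 to 15 minus 6 to 10.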
